A study of Mus musculus with 9 samples.

Results

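The genes described are the subunits of RNA polymerases I, II and III and of the Mediator complex, taken as every entry whose symbol is Polr1, Polr2 or Polr3 followed by a subunit letter, or Med followed by a number. The rule found 58 of the 55335 entries, and 57 of them are described, of which 5 belong to RNA polymerase I (Pol I), 12 to Pol II, 9 to Pol III and 31 to Mediator. All but 1 are protein coding. The exception, Med9os, is a noncoding RNA named after the opposite strand of Med9 and is no Mediator subunit.

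Transcripts were measured in 8-cell mouse embryos of the ICR stock after siRNA had been injected into the cytoplasm of zygotes made by in vitro fertilization. Control embryos received nontargeting siRNA, MFN1-KD embryos siRNA against Mfn1, which encodes the mitochondrial fusion protein mitofusin 1, and H3.3-KD embryos siRNA against H3f3a and H3f3b, the genes of histone variant H3.3. Each group had 3 libraries, made from pooled embryos by oligo-dT priming and the Smart-Seq2 method, which amplifies full-length cDNA by PCR. The labels give 5 to 10 embryos for a group, whereas the study's methods give 10 for each group. Neither says how many stand behind each library. The comparison asks how the transcripts of the transcription machinery stood after each depletion.

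As background, Pol I transcribes the large ribosomal RNA precursor, Pol II transcribes messenger RNA genes, and Pol III transcribes transfer RNA, 5S ribosomal RNA and other short RNAs. Each is built on a pair of large catalytic subunits, with smaller subunits around them, some of which are used by more than one polymerase. Mediator relays signals from DNA-bound factors to Pol II and is described as head, middle and tail modules on a MED14 backbone, with a kinase module that binds reversibly. In mouse embryos the zygotic genome is activated in the first cleavages, so that these complexes pass from maternal to embryonic supply before the stage measured here.

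The targeted genes were lower in their own knockdown. H3f3a had 1594, 2092 and 2110.3 FPKM in control, 1349, 1371 and 1288 in MFN1-KD and 169.7, 117 and 161 in H3.3-KD (log2 fold change -3.69, SE 0.20, adjusted p 7.23e-06 for H3.3-KD against control), and H3f3b had 2903, 2895 and 3166 FPKM in control, 2831, 2836 and 2695 in MFN1-KD and 311, 171 and 257 in H3.3-KD (log2 fold change -3.64, SE 0.21, adjusted p 8.96e-06). Mfn1 had 51.6, 22.6 and 23.8 FPKM in control, 9.54, 4.4 and 1.15 in MFN1-KD and 100.2, 89.5 and 40.02 in H3.3-KD (log2 fold change -2.66, SE 0.58, adjusted p 0.0431 for MFN1-KD against control), and its call held under 7 of 18 alternative settings. Genes listed above 0 numbered 21643 to 22507 in control, 15577 to 20842 in MFN1-KD, where replicate 3 was lowest, and 23655 to 24820 in H3.3-KD. Relative depth, read from the steps between low FPKM values, ran from 0.763 in MFN1-KD replicate 3 to 1.00 in control replicate 1. Of 8 markers of 8-cell embryos all had a mean above 1 FPKM, with sums of 10926 to 14165 FPKM in control, 16957 to 20643 in MFN1-KD and 6624 to 8462 in H3.3-KD. Nearly all of each sum was Dppa3, with 10642.5 to 13913.5 FPKM in control, 16697 to 20351 in MFN1-KD and 6244 to 7699 in H3.3-KD. Sall4 was also lower in every H3.3-KD library than in any of control. Klf5, Tfap2c, Tead4 and Pou5f1 were higher in every H3.3-KD library, and Cdh1 and Nanog overlapped with control. Of these markers Pou5f1 ranged from 5.1 to 8.9 FPKM in control, 0.30 to 3.68 in MFN1-KD and 63.1 to 392 in H3.3-KD. Of 10 markers of cumulus and granulosa cells 1 had a mean above 1 FPKM and Fshr was listed at 0 in every library, with sums of 16.1 to 29.8, 10.3 to 19.9 and 38.5 to 67.4 FPKM in control, MFN1-KD and H3.3-KD. Nearly all of each sum was Amhr2, with 16.05 to 29.79, 10.16 to 19.32 and 38.01 to 66.09 FPKM. No other gene of this list exceeded 0.65 FPKM in any library. Sums of 8 oocyte markers were 67.9 to 70.2, 34.3 to 101 and 34.8 to 155 FPKM, and those of 9 2-cell markers 6.7 to 18.9, 18.9 to 77.3 and 11.3 to 125. The part of these marker levels in the results below was not tested.

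Promoter windows were found in RefSeq (GRCm38.p6) for 48 of the 57 genes, with 53 windows of 300 bases in all, from 250 bases before to 50 after a transcription start. The windows of these genes were richer in CpG, with a median of 20 CpG against 7 over the 32851 windows of all genes, and a median GC content of 59.3% against 52.7%. Short motifs were searched on both strands. The GC box GGGCGG was in 33 of the 53 windows (62.3%, against 35.7% of all windows), and the ETS-type CCGGAAG in 16 (30.2% against 8.86%). The NRF1-type GCATGCGC was in 6 (11.3% against 2.71%), and the YY1-type ATGGCGGC in 2 (3.77% against 2.24%). CCAAT was in 17 (32.1% against 37.4%) and TATAAA in 5 (9.43% against 13.6%). The windows of all genes cover 27025 genes, whereas 13011 genes reached the level tested here. No set matched for expression or CpG content was compared, so whether these shares are particular to these genes was not tested.

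Among genes that were higher in H3.3-KD, GGGCGG was in 8 of 10 windows and CCAAT in 1; among those that were lower, GGGCGG was in 10 of 15 and CCAAT in 7. These are counts of letters over few windows, some of which share a gene, and no difference between them was tested.

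The windows of 6 genes are shown because the comparisons below turn on them: Polr2j and Polr2l for the Pol II subunits that fell in H3.3-KD, Polr3e and Med16 for the Pol III and Mediator genes with the smallest p among those that rose, and Med22 and Polr3k, which were called in opposite directions in the 2 knockdowns. Each is written 5′ to 3′ on the gene's own strand, with the 6 motifs named above, on either strand, in capitals.
Polr2j, chr5:136116441-136116740, plus strand: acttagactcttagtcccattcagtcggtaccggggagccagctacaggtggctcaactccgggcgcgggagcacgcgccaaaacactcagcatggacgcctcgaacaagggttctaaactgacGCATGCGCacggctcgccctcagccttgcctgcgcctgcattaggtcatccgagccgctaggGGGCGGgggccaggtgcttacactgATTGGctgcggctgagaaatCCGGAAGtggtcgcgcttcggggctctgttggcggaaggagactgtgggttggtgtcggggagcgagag
Polr2l, chr7:141475104-141475403, minus strand: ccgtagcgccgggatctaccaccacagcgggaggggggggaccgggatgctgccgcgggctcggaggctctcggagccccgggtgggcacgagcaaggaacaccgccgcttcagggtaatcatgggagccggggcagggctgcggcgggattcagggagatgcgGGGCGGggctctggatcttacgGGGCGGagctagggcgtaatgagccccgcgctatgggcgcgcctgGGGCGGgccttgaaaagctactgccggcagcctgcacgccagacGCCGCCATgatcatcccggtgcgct
Polr3e, chr7:120917528-120917827, plus strand: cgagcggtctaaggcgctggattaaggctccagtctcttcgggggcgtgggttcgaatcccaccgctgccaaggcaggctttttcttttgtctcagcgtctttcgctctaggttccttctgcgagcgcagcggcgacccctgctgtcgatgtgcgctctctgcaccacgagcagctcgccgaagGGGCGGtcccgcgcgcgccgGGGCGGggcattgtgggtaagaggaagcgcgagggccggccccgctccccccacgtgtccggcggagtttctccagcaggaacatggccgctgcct
Med16, chr10:79908889-79909188, minus strand: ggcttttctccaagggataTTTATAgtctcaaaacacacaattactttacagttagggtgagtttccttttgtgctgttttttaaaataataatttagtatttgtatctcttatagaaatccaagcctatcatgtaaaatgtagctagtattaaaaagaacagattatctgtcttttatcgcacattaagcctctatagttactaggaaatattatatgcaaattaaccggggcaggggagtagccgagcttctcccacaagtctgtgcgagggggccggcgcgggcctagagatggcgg
Med22, chr2:26910593-26910892, minus strand: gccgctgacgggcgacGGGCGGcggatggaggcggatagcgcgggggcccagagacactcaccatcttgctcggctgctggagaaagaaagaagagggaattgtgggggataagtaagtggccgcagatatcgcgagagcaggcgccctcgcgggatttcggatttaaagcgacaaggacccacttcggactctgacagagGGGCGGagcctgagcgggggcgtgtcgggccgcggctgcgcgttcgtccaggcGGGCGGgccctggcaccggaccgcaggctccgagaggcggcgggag
Polr3k, chr2:181864110-181864409, plus strand: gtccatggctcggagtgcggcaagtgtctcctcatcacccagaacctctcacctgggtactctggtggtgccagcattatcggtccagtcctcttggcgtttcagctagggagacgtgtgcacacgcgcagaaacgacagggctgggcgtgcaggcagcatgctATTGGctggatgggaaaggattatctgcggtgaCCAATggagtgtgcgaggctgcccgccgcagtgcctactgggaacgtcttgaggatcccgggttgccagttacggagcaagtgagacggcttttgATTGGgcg
Of these windows, that of Polr2j held the GC box, CCAAT in reverse, the ETS-type and the NRF1-type letters, those of Polr2l, Polr3e and Med22 held the GC box more than once, and that of Polr3k held CCAAT in either orientation. The Med16 window had the lowest GC content of the 6, at 39.3%, with 8 CpG, against 59.3% to 71% and 18 to 35 CpG in the other windows.

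In Pol I and Pol II the pair of large catalytic subunits had the lowest transcript levels in control embryos, on the FPKM scale, which is per length. In Pol II the group means ran from 1.64 FPKM for Polr2a, the largest subunit with the heptad-repeat tail, to 1069.8 FPKM for Polr2k, a small zinc-binding subunit, a ratio of 652. In Pol I they ran from 10.4 FPKM for the largest subunit Polr1a to 483 for Polr1d, a member of an assembly dimer shared with Pol III. In Pol III they ran from 4.82 FPKM for Polr3e to 107 for Polr3g among the tested genes, and in Mediator from 1.54 FPKM for Med12l, a kinase module paralog, to 705 for Med10, a middle module subunit. Polr2a had 2.12, 1.84 and 0.96 FPKM in control, 4.48, 4.2 and 0.77 in MFN1-KD and 2.38, 3.02 and 3.15 in H3.3-KD, and Polr2k had 742, 1213 and 1255 FPKM in control, 1042, 1386 and 1177 in MFN1-KD and 557, 357 and 251 in H3.3-KD. The ratio of the highest to the lowest Pol II mean was 381 in MFN1-KD embryos and 146 in H3.3-KD, where Polr2e, with 415 FPKM, took the top place.

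Of the 57 genes, 55 averaged 1 FPKM or more across the 9 libraries and were tested with limma on log2(FPKM + 1). Med9os and Polr3gl were below that level. A gene was called at a Benjamini-Hochberg adjusted p under 0.05 over all 13011 genes tested. In H3.3-KD against control 11 genes were higher and 14 lower, or 20% and 25.5% of those tested. Of all genes 21.8% were called higher and 9.12% lower, so the share that rose was close to that of all genes. In MFN1-KD against control 1 was higher and 5 were lower, or 1.82% and 9.09% of those tested, against 1.15% and 2.2% of all genes. Both comparisons use the same control libraries. The rule used in the study's methods was a change of more than 2-fold with an unadjusted p under 0.05. By it 11 genes passed as higher and 9 as lower in H3.3-KD (20% and 16.4%, against 23.9% and 9.39% of all genes). In MFN1-KD 0 passed as higher and 5 as lower (0% and 9.09%, against 5.02% and 9.05%). The share lower in MFN1-KD by this rule was thus close to that of all genes. Without overlap between the libraries of the groups, 16 stood above and 22 below control in H3.3-KD (29.1% and 40%, against 34.5% and 18.9% of all genes). In MFN1-KD 3 stood above and 19 below (5.45% and 34.5%, against 11.4% and 16.8%).

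The median of all genes in H3.3-KD against control was 0.26 on the log2 scale, and 0.00 with median-ratio scaling and -0.0658 with upper-quartile scaling, so each complex is also given after subtraction of that median, as a value relative to all genes. With these scalings 10 genes were higher and 20 lower, and 7 higher and 20 lower. The study calls the libraries of a group biological replicates, but no label says that they came from separate collections. The p-values therefore measure only the spread between these libraries. In pools of whole embryos, fewer cells of a type and less RNA per cell cannot be told apart. Fold changes on the log2(FPKM + 1) scale understate those of low genes.

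**Figure D1:**
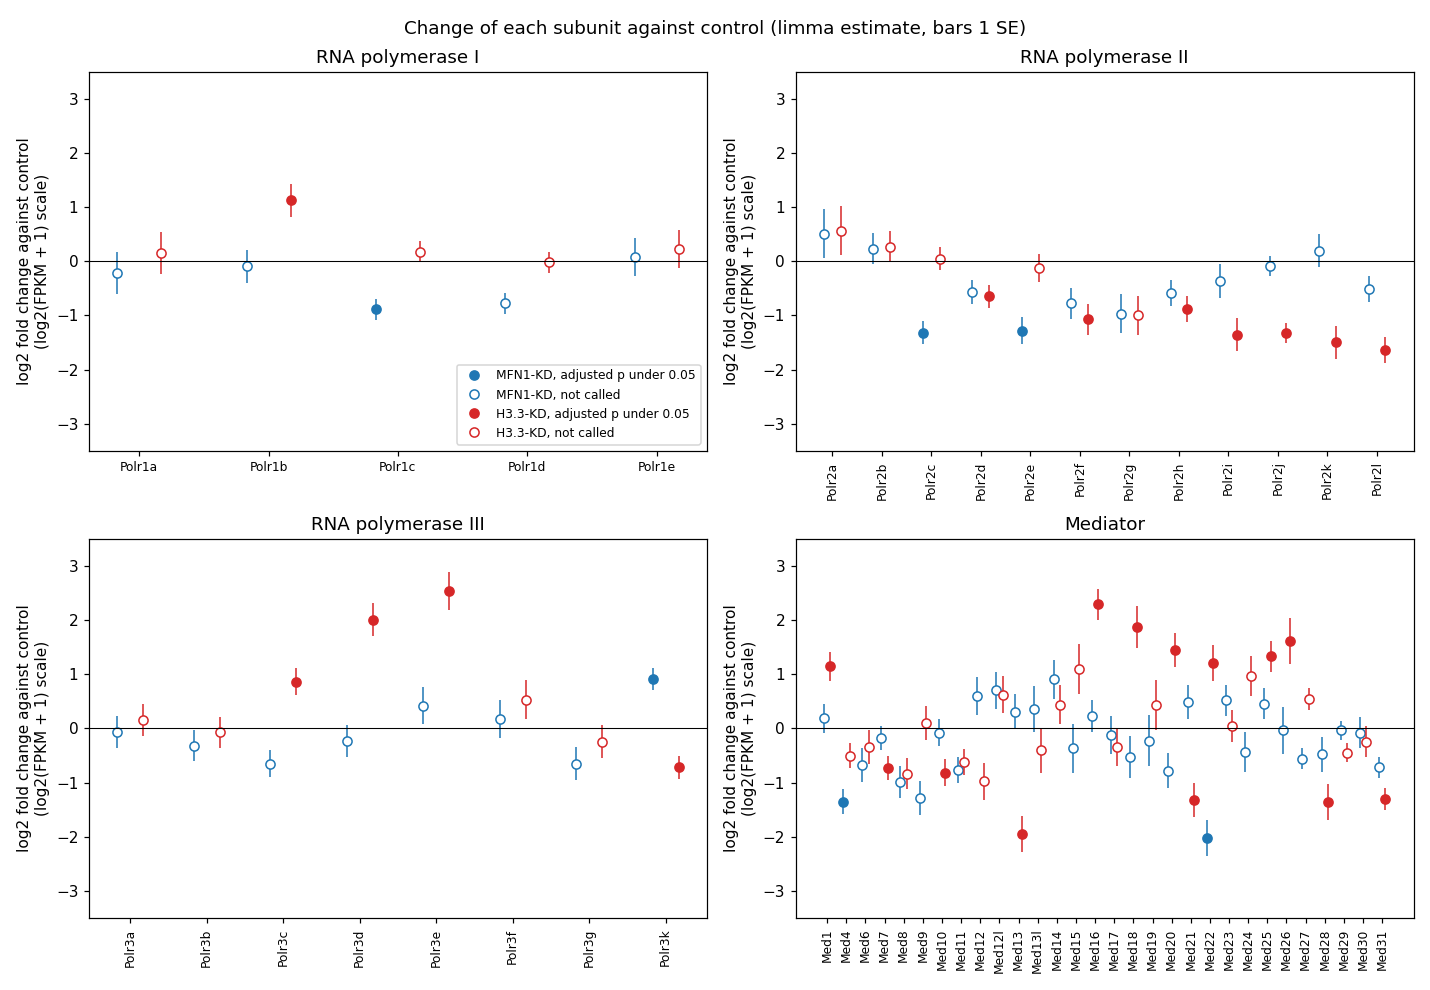
Log2 fold change against control of each tested gene in MFN1-KD (blue) and H3.3-KD (red), on the log2(FPKM + 1) scale, with bars of 1 SE; filled points have an adjusted p under 0.05. In H3.3-KD the filled Pol II points all lie below 0 and 3 of the 4 filled Pol III points above it, and the Mediator points fall on both sides.

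Of the 12 Pol II subunits, 7 fell and 0 rose in H3.3-KD embryos. That is 58.3% lower, against the 9.12% of all genes. The median log2 fold change was -0.94, or -1.20 relative to all genes. The subunits that fell were the 4 small ones shared by all 3 polymerases other than Polr2e, namely Polr2f, Polr2h, Polr2k and Polr2l, together with Polr2d of the stalk, Polr2i, the zinc-ribbon subunit used in RNA cleavage, and Polr2j of the assembly dimer. The catalytic subunits Polr2a and Polr2b were not among them.

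Polr2l, a small zinc-binding subunit, had 521, 818 and 846 FPKM in control, 616, 486 and 415 in MFN1-KD and 206, 238 and 239 in H3.3-KD (log2 fold change -1.64, SE 0.24, adjusted p 0.000753 for H3.3-KD against control). Polr2k, also zinc-binding, fell from the levels given above (log2 fold change -1.50, SE 0.30, adjusted p 0.00461). Polr2j had 802, 968 and 985 FPKM in control, 924, 931 and 743 in MFN1-KD and 390.4, 383 and 321 in H3.3-KD (log2 fold change -1.33, SE 0.18, adjusted p 0.000592). In each of these 3 genes every H3.3-KD library was below every control library. Polr2i had 184, 242 and 279 FPKM in control, 202, 219.9 and 130.3 in MFN1-KD and 105, 117 and 59.3 in H3.3-KD (log2 fold change -1.35, SE 0.31, adjusted p 0.00843). Polr2f, on the clamp side, had 377, 538 and 637 FPKM in control, 337, 375 and 203 in MFN1-KD and 215, 298 and 216 in H3.3-KD (log2 fold change -1.07, SE 0.29, adjusted p 0.017). The H3.3-KD libraries of both were below those of control without overlap. Polr2h had 545, 739.8 and 849.7 FPKM in control, 515, 576 and 343 in MFN1-KD and 399, 403 and 343 in H3.3-KD (log2 fold change -0.88, SE 0.24, adjusted p 0.0201), and Polr2d of the stalk had a mean of 249.6 ± 52.98 FPKM in control and 157 ± 10.7 in H3.3-KD (SD, n = 3; log2 fold change -0.65, SE 0.22, adjusted p 0.0456). These were the smallest of the 7 changes.

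The fit was repeated under 18 alternative settings, which changed the filter, the pseudocount, the scaling or the libraries used, added the replicate number as a block, or removed from each library its trend with GC content and transcript length. The calls of Polr2i, Polr2j and Polr2l held under each of them. Polr2k lost its call in H3.3-KD under 2 settings (adjusted p 0.426 to 0.455: GC and length trend removed with or without the block). Polr2f lost its call in H3.3-KD under 5 settings (adjusted p 0.0532 to 0.0795: no filter, without H3.3-KD replicate 1 or 3, without control replicate 2 or 3). Polr2h lost its call in H3.3-KD under 4 settings (adjusted p 0.057 to 0.0904: no filter, without H3.3-KD replicate 3, without control replicate 2 or 3). Polr2d lost its call in H3.3-KD under 10 settings (adjusted p 0.0581 to 0.294: GC and length trend removed with or without the block, no filter, replicate block, without H3.3-KD replicate 1 or 2 or 3, without MFN1-KD replicate 1, without control replicate 2 or 3). With median-ratio or upper-quartile scaling 8 of the 12 were called lower in each.

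**Figure D2:**
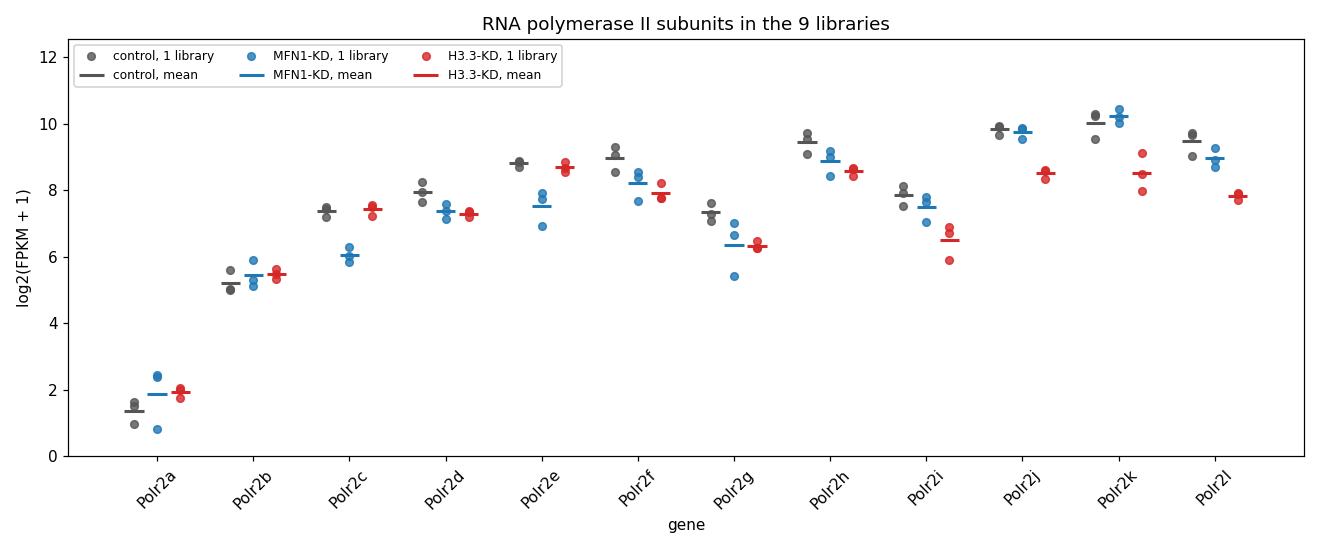
Levels of the 12 Pol II subunits as log2(FPKM + 1) in each of the 9 libraries (points; bars are group means of 3 libraries). For Polr2h, Polr2i, Polr2j, Polr2k and Polr2l only the red H3.3-KD points lie below the grey control points without overlap. For Polr2c and Polr2e only the blue MFN1-KD points do, and for Polr2d, Polr2f and Polr2g those of both knockdowns do.

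The large Pol II subunits did not pass the test in either knockdown. Polr2a, whose libraries are listed above, had a log2 fold change of 0.57 (SE 0.45, adjusted p 0.372) in H3.3-KD, with all H3.3-KD libraries above those of control, and of 0.51 (SE 0.45, adjusted p 0.534) in MFN1-KD, where replicate 3 was below control and replicates 1 and 2 above it. Polr2b, the other large subunit, had 47.2, 31.8 and 31.2 FPKM in control, 38.5, 59.2 and 33.8 in MFN1-KD and 48.2, 39.3 and 44.1 in H3.3-KD, and its groups overlapped (log2 fold change 0.27, adjusted p 0.495, in H3.3-KD and 0.23, adjusted p 0.663, in MFN1-KD). Polr2g, the stalk partner of Polr2d, had 156, 134 and 198 FPKM in control, 100.4, 128 and 42.3 in MFN1-KD and 75.8, 75.9 and 88.7 in H3.3-KD, with log2 fold changes of -0.999 (adjusted p 0.0589) for H3.3-KD and -0.97 (adjusted p 0.148) for MFN1-KD that missed the threshold, although all libraries of either knockdown were below those of control. The sign of the Polr2b value in H3.3-KD turned with median-ratio scaling (-0.0562) and upper-quartile scaling (-0.15).

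In MFN1-KD embryos 2 Pol II subunits fell, Polr2c and Polr2e, and 0 rose (16.7% lower, beside 2.2% of all genes). Polr2c, the partner of Polr2j in the assembly dimer, had 146, 172 and 181 FPKM in control, 64.8, 77.8 and 56.02 in MFN1-KD and 178, 187 and 149.5 in H3.3-KD (log2 fold change -1.32, SE 0.21, adjusted p 0.0296 for MFN1-KD against control). Polr2e, the jaw subunit shared by all 3 polymerases, had 415, 465 and 470.4 FPKM in control, 213, 242 and 122 in MFN1-KD and 409, 462 and 373 in H3.3-KD (log2 fold change -1.28, SE 0.25, adjusted p 0.036). For both, the MFN1-KD libraries were below those of control without overlap, whereas the H3.3-KD libraries overlapped them. The Polr2c log2 fold change in H3.3-KD, 0.0467, turned to -0.68 with the GC and length trend removed, with or without the block. It was -0.29 with median-ratio scaling and -0.38 with upper-quartile scaling. The MFN1-KD libraries of Polr2d, Polr2f and Polr2g, which were not called, were also below control without overlap. That makes 5 of the 12 subunits (41.7%, beside 16.8% of all genes), and the H3.3-KD libraries of these uncalled genes were below control as well. The median of the 12 subunits was -0.54 (-0.46 relative to all genes), and -0.0777 relative to all genes once the trend with GC content and length was removed. Polr2c lost its call in MFN1-KD under 8 settings (adjusted p 0.0505 to 0.137: no filter, only the 6 libraries compared, replicate block with GC and length trend removed, replicate block, without H3.3-KD replicate 1 or 2, without control replicate 2 or 3). Polr2e lost its call in MFN1-KD under 10 settings (adjusted p 0.0505 to 0.152: GC and length trend removed with or without the block, no filter, only the 6 libraries compared, replicate block, without H3.3-KD replicate 1 or 2, without control replicate 1 or 2 or 3).

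Both genes differed between the knockdowns in the direct comparison, with Polr2c at 1.37 (adjusted p 0.000791) and Polr2e at 1.16 (adjusted p 0.00514) higher in H3.3-KD, while Polr2j at -1.24 (adjusted p 0.000569), Polr2k at -1.69 (0.00173), Polr2l at -1.13 (0.00401) and Polr2i at -0.99 (0.0284) were lower, all as log2 fold changes of H3.3-KD against MFN1-KD. With the GC and length trend removed, with or without the block, the direct value of Polr2e was 0.18 (adjusted p 0.589 and 0.581) and that of Polr2k -0.38 (adjusted p 0.274 and 0.308), so that both calls were lost. Polr2c lost its call in the direct comparison under 1 setting (adjusted p 0.0562: replicate block with GC and length trend removed). Polr2i lost its call in the direct comparison under 5 settings (adjusted p 0.0608 to 0.0932: no filter, only the 6 libraries compared, without H3.3-KD replicate 3, without MFN1-KD replicate 1 or 2). The direct calls of Polr2j and Polr2l held under each setting. In the main fit the partners of the assembly dimer, Polr2c and Polr2j, were thus each called in a different knockdown and in opposite directions in the direct comparison.

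In H3.3-KD 1 of the 5 Pol I subunits with a Polr1 symbol rose and 0 fell, or 20% higher, close to the 21.8% of all genes. Their median log2 fold change was 0.18 (-0.0846 relative to all genes). The 5 subunits shared by all 3 polymerases are counted under Pol II. Of these shared subunits 4 fell in H3.3-KD (80%, beside 9.12% of all genes), with a median of -1.07 (-1.33 relative to all genes). Polr1b, the smaller of the large catalytic subunits, had 18.4, 14.5 and 9.92 FPKM in control, 13.8, 15.9 and 9.88 in MFN1-KD and 30.1, 37.9 and 27.2 in H3.3-KD (log2 fold change 1.13, SE 0.31, adjusted p 0.0188 for H3.3-KD against control), and all H3.3-KD libraries were above those of control. In MFN1-KD 1 of the 5 genes with a Polr1 symbol fell and 0 rose, or 20% lower beside 2.2% of all genes. Their median was -0.22 (-0.13 relative to all genes). Polr1c, which forms the assembly dimer of Pol I and Pol III with Polr1d, had 253, 252 and 267 FPKM in control, 131, 158 and 129.5 in MFN1-KD and 243, 298 and 339 in H3.3-KD (log2 fold change -0.88, SE 0.20, adjusted p 0.0435 for MFN1-KD against control). Its partner Polr1d had 395, 512 and 542 FPKM in control, 279.7, 289 and 268 in MFN1-KD and 497, 404 and 523 in H3.3-KD, and its log2 fold change of -0.78 in MFN1-KD (SE 0.19) had an adjusted p of 0.0556. The MFN1-KD libraries of both genes were below those of control without overlap.

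The largest subunit Polr1a had 12.9, 8.55 and 9.57 FPKM in control, 9.96, 13.3 and 4.73 in MFN1-KD and 8.15, 13.6 and 13.6 in H3.3-KD, with overlap between all groups and a log2 fold change of 0.16 (adjusted p 0.791) in H3.3-KD, which was -0.15 with median-ratio scaling. Polr1e, a subunit particular to Pol I, had log2 fold changes of 0.23 in H3.3-KD embryos and 0.0823 in MFN1-KD (adjusted p 0.66 and 0.923). Its H3.3-KD value was -0.20 with the GC and length trend removed, with or without the block. It was -0.11 with median-ratio scaling, -0.20 with upper-quartile scaling and -0.14 without H3.3-KD replicate 3. Its MFN1-KD value was -0.13 without MFN1-KD replicate 2 and -0.00970 without replicate 3 of that group. Polr1b lost its call in H3.3-KD under 6 settings (adjusted p 0.0573 to 0.0981: GC and length trend removed with or without the block, upper-quartile scaling, without H3.3-KD replicate 2, without control replicate 2 or 3). Polr1c lost its call in MFN1-KD under 13 settings (adjusted p 0.0516 to 0.205: GC and length trend removed with or without the block, median-ratio scaling, no filter, only the 6 libraries compared, replicate block, without H3.3-KD replicate 1 or 2, without MFN1-KD replicate 1 or 3, without control replicate 1 or 2 or 3).

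Of the 8 tested Pol III subunits with a Polr3 symbol, 3 rose and 1 fell in H3.3-KD embryos, and the large catalytic ones were not among them. That is 37.5% higher and 12.5% lower, against 21.8% and 9.12% of all genes, with a median log2 fold change of 0.35 (0.0839 relative to all genes). Subunits shared with other polymerases are counted under Pol I or Pol II. Both members of the dimer used in initiation and termination, Polr3d and Polr3e, rose, as did Polr3c of the initiation trimer. The subunit that fell was Polr3k, which takes part in cleavage of the nascent RNA, and it rose in MFN1-KD.

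Polr3e had 6.34, 4.98 and 3.15 FPKM in control, 6.87, 6.5 and 6.37 in MFN1-KD and 26.3, 25.2 and 48.8 in H3.3-KD (log2 fold change 2.54, SE 0.34, adjusted p 0.000581 for H3.3-KD against control), a mean 6.93 times that of control on the FPKM scale. Polr3d had 19.9, 13.2 and 9.2 FPKM in control, 10.8, 13.2 and 10.02 in MFN1-KD and 51.8, 60.8 and 59.8 in H3.3-KD (log2 fold change 2.01, SE 0.30, adjusted p 0.00093). All H3.3-KD libraries of both were above all control libraries, and those of Polr3e in MFN1-KD were above control as well without passing the test (log2 fold change 0.42, SE 0.34, adjusted p 0.5). Polr3c had 40.6, 34.5 and 25.9 FPKM in control, 19.3, 19.2 and 24.03 in MFN1-KD and 67, 55.4 and 61.4 in H3.3-KD (log2 fold change 0.86, SE 0.25, adjusted p 0.0236), again without overlap between H3.3-KD and control. Polr3k had 80.9, 83.5 and 89.5 FPKM in control, 179.6, 137 and 166 in MFN1-KD and 55.9, 53.7 and 43.8 in H3.3-KD, so that all its MFN1-KD libraries were above and all its H3.3-KD libraries below control. Its log2 fold change was 0.91 (SE 0.21, adjusted p 0.0466) in MFN1-KD, -0.72 (SE 0.21, adjusted p 0.0239) in H3.3-KD and -1.63 (SE 0.21, adjusted p 0.000283) for H3.3-KD against MFN1-KD.

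The calls of Polr3d and Polr3e in H3.3-KD held under every alternative setting, and so did that of Polr3k between the knockdowns. Polr3c lost its call in H3.3-KD under 9 settings (adjusted p 0.052 to 0.2: GC and length trend removed with or without the block, median-ratio scaling, no filter, upper-quartile scaling, without H3.3-KD replicate 1 or 3, without control replicate 2 or 3). Polr3k lost its call in H3.3-KD under 7 settings (adjusted p 0.0518 to 0.124: GC and length trend removed with or without the block, no filter, without H3.3-KD replicate 2 or 3, without control replicate 2 or 3). Polr3k lost its call in MFN1-KD under 14 settings (adjusted p 0.0509 to 0.177: GC and length trend removed with or without the block, median-ratio scaling, no filter, only the 6 libraries compared, pseudocount 0.1, replicate block, without H3.3-KD replicate 1 or 2, without MFN1-KD replicate 1 or 3, without control replicate 1 or 2 or 3). The median of the complex in H3.3-KD relative to all genes was -0.0861 once the trend with GC content and length was removed, and it was -0.18 with H3.3-KD replicate 3 left out and 0.21 or 0.23 without replicate 1 or 2 of that group.

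**Figure D3:**
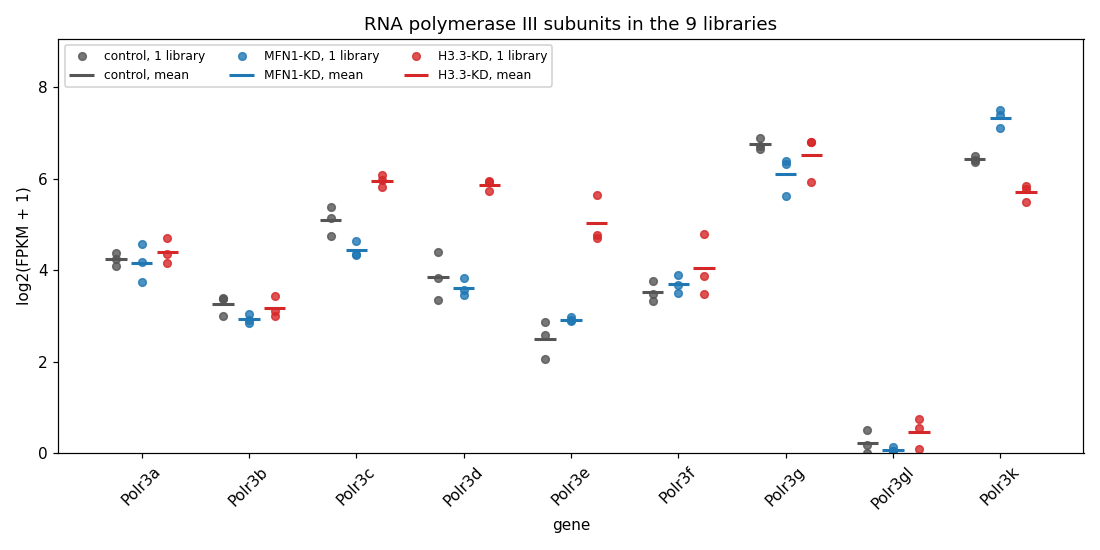
Levels of the 9 Pol III subunits as log2(FPKM + 1) in each of the 9 libraries (points; bars are group means of 3 libraries). Polr3d and Polr3e are higher in H3.3-KD (red) than in control (grey), Polr3k lies above control in MFN1-KD (blue) and below it in H3.3-KD, and Polr3gl is near 0 throughout.

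The large catalytic subunits of Pol III were not called in either knockdown. Polr3a had 19.7, 16.04 and 17.99 FPKM in control, 12.4, 16.99 and 22.9 in MFN1-KD and 19.3, 16.8 and 24.9 in H3.3-KD, and Polr3b had 9.31, 6.98 and 9.46 FPKM in control, 6.53, 7.18 and 6.21 in MFN1-KD and 7.57, 9.82 and 6.99 in H3.3-KD. Their log2 fold changes in H3.3-KD were 0.16 and -0.0720 (adjusted p 0.717 and 0.873), and in MFN1-KD -0.0718 and -0.32 (0.919 and 0.537). The Polr3a value in H3.3-KD was -0.16 with median-ratio scaling, and that of Polr3b was 0.0177 without H3.3-KD replicate 3. Polr3f of the initiation trimer had a log2 fold change of 0.53 in H3.3-KD embryos and 0.18 in MFN1-KD (adjusted p 0.287 and 0.813).

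Polr3g and Polr3gl are paralogs that take the same place in the initiation trimer, and Polr3g is known as the form of early embryos and pluripotent cells. Polr3g had 118, 99.8 and 104 FPKM in control, 82.5, 78.4 and 48.1 in MFN1-KD and 111, 59.4 and 111 in H3.3-KD, whereas Polr3gl had 0, 0.42 and 0.14 FPKM in control, 0.10, 0.030 and 0.040 in MFN1-KD and 0.68, 0.47 and 0.070 in H3.3-KD. Every library thus had far more Polr3g than Polr3gl on this per-length scale. The log2 ratio of Polr3g to Polr3gl, with 1 FPKM added to each, was 6.52 ± 0.37 in control, 6.02 ± 0.40 for MFN1-KD and 6.04 ± 0.67 in H3.3-KD (SD, n = 3; two-sided exact permutation p 0.3 and 0.4 against control, raw and not adjusted over these 2 tests, where 3 against 3 cannot go below 0.1). Since Polr3gl is near 0, the added value sets this ratio. With 0.1 FPKM added it was 8.85 in control, and the differences from control became -0.0641 for MFN1-KD and -1.11 for H3.3-KD, in place of -0.50 and -0.48.

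Mediator transcripts moved in both directions. In H3.3-KD 7 of 30 tested genes rose and 6 fell, or 23.3% and 20% beside 21.8% and 9.12% of all genes. The share that rose was thus close to that of all genes. Its median was -0.0996 (-0.36 relative to all genes). In MFN1-KD 0 rose and 2 fell (6.67% lower, beside 2.2% of all genes), with a median of -0.15 (-0.0648). With median-ratio scaling 7 rose and 11 fell in H3.3-KD. The genes that rose were Med18, Med20 and Med22 of the head, Med1 and Med26 of the middle, and Med16 and Med25 of the tail. Those that fell were Med7, Med10, Med21 and Med31 of the middle, Med28 of the tail and Med13 of the kinase module.

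In the head, which contacts Pol II, 3 of 7 genes rose in H3.3-KD and 0 fell (42.9% and 0%, beside 21.8% and 9.12% of all genes). The head median was -0.34 (-0.60 relative to all genes), with 4 of the 7 values negative. Without overlap 3 genes stood above control and 3 below it (42.9% each, beside 34.5% and 18.9% of all genes). Those below were Med6, Med8 and Med11, which were not called. The Med6 value turned to 0.31 with the GC and length trend removed. In MFN1-KD 1 head gene fell and 0 rose (14.3% lower, beside 2.2% of all genes). Med22 had 36.2, 33.6 and 34.2 FPKM in control, 11.2, 9.8 and 4.09 in MFN1-KD and 94.5, 71.4 and 79.8 in H3.3-KD (log2 fold change -2.03, SE 0.33, adjusted p 0.0306 for MFN1-KD and log2 fold change 1.21, SE 0.33, adjusted p 0.0195 for H3.3-KD, each against control). Med18, a subunit of the movable jaw, had 1.81, 1.91 and 1.62 FPKM in control, 1.24, 1.28 and 0.38 in MFN1-KD and 8.35, 5.87 and 15.2 in H3.3-KD (log2 fold change 1.87, SE 0.39, adjusted p 0.00522 for H3.3-KD against control). Its jaw partner Med20 had 35.4, 26.9 and 26.8 FPKM in control, 14.2, 12.4 and 26.3 in MFN1-KD and 87.7, 63.01 and 99.6 in H3.3-KD (log2 fold change 1.45, SE 0.32, adjusted p 0.00692). In all 3 genes every MFN1-KD library was below, and every H3.3-KD library above, every control library, though the MFN1-KD values of Med18 (-0.53, adjusted p 0.441) and Med20 (-0.78, adjusted p 0.177) missed the threshold. The mean of Med18 was 0.967 FPKM in MFN1-KD, at the low end of the scale. Between the knockdowns, H3.3-KD was higher by a log2 fold change of 3.23 in Med22, 2.40 in Med18 and 2.23 in Med20 (adjusted p 9.83e-05, 0.001 and 0.000519).

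All 7 head genes had a negative log2 fold change in MFN1-KD, from -2.03 to -0.12 with a median of -0.76, where 55% of all genes were negative. The Med17 value, -0.12, turned to 0.00771 without MFN1-KD replicate 1 and to 0.19 without control replicate 1. The calls of Med18 and Med20 in H3.3-KD held under every alternative setting in which they were tested, which for Med18 leaves out the minimum of 10 FPKM. Med22 lost its call in H3.3-KD under 7 settings (adjusted p 0.0564 to 0.264: GC and length trend removed with or without the block, no filter, upper-quartile scaling, without H3.3-KD replicate 1, without control replicate 2 or 3). Med22 lost its call in MFN1-KD under 9 settings (adjusted p 0.0505 to 0.135: no filter, only the 6 libraries compared, replicate block with GC and length trend removed, replicate block, without H3.3-KD replicate 1 or 2, without control replicate 1 or 2 or 3).

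In the middle module, which links the head to the tail, 2 of 9 genes rose and 4 fell in H3.3-KD (22.2% and 44.4%, beside 21.8% and 9.12% of all genes). Med31 had 349, 427 and 465 FPKM in control, 273, 274 and 207 in MFN1-KD and 165, 169 and 163 in H3.3-KD (log2 fold change -1.31, SE 0.20, adjusted p 0.000991 for H3.3-KD against control). Med21 had 171, 182 and 183 FPKM in control, 203, 179.8 and 429 in MFN1-KD and 77.7, 54.8 and 83.8 in H3.3-KD (log2 fold change -1.32, SE 0.32, adjusted p 0.0108), and Med10, the most abundant Mediator transcript in each group, had 690.2, 682 and 743 FPKM in control, 783, 730.4 and 518 in MFN1-KD and 365, 307 and 565 in H3.3-KD (log2 fold change -0.82, SE 0.25, adjusted p 0.0298). In these genes all H3.3-KD libraries were below those of control. Med7 fell by 0.73 on the log2 scale (adjusted p 0.0271). Med1, the subunit through which nuclear receptors bind Mediator, had 20.98, 15.8 and 20.8 FPKM in control, 26.9, 22.01 and 17.7 in MFN1-KD and 46.98, 49.9 and 34.8 in H3.3-KD (log2 fold change 1.15, SE 0.27, adjusted p 0.00934). Med26, which recruits elongation factors, had 9.42, 4.5 and 7.88 FPKM in control, 9.73, 9.71 and 3.09 in MFN1-KD and 19.1, 23.7 and 27.9 in H3.3-KD (log2 fold change 1.61, SE 0.43, adjusted p 0.0166). The H3.3-KD libraries of both were above those of control without overlap.

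In MFN1-KD, Med4 fell, with 177, 170.4 and 218 FPKM in control, 84.2, 83.2 and 55.2 in MFN1-KD and 129, 136 and 131 in H3.3-KD (log2 fold change -1.35, SE 0.22, adjusted p 0.0325 for MFN1-KD against control). Its H3.3-KD libraries were also below those of control without passing the test (-0.50, adjusted p 0.116). Med9 had 19.3, 24.4 and 27.99 FPKM in control, 11, 11.4 and 5.95 in MFN1-KD and 27.8, 28.8 and 20.5 in H3.3-KD, so that its MFN1-KD libraries were below control, with a change of more than 2-fold, an unadjusted p of 0.0019 and an adjusted p of 0.0532 (log2 fold change -1.28). The noncoding Med9os, which could share reads with Med9 since no strand setting is stated, had 0, 0.46 and 0.30 FPKM in control, 1.89, 0 and 0 in MFN1-KD and 0.22, 0.33 and 0.12 in H3.3-KD. Med21 lost its call in H3.3-KD under 2 settings (adjusted p 0.08 to 0.105: GC and length trend removed with or without the block). Med10 lost its call in H3.3-KD under 6 settings (adjusted p 0.065 to 0.116: no filter, without H3.3-KD replicate 1 or 2, without control replicate 1 or 2 or 3). Med7 lost its call in H3.3-KD under 8 settings (adjusted p 0.056 to 0.149: GC and length trend removed with or without the block, no filter, without H3.3-KD replicate 1 or 2 or 3, without control replicate 2 or 3). Med1 lost its call in H3.3-KD under 2 settings (adjusted p 0.0505 to 0.0541: upper-quartile scaling, without control replicate 2). Med26 lost its call in H3.3-KD under 6 settings (adjusted p 0.0512 to 0.36: GC and length trend removed with or without the block, no filter, without H3.3-KD replicate 2 or 3, without control replicate 2). Med4 lost its call in MFN1-KD under 9 settings (adjusted p 0.0505 to 0.144: no filter, only the 6 libraries compared, replicate block with GC and length trend removed, replicate block, without H3.3-KD replicate 1 or 2, without control replicate 1 or 2 or 3).

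In the tail, where many DNA-bound activators dock, 2 of 9 genes rose and 1 fell in H3.3-KD (22.2% and 11.1%, close to the 21.8% and 9.12% of all genes), and 0 rose and 0 fell in MFN1-KD. Med16 had 2.14, 1.42 and 1.33 FPKM in control, 1.81, 2.24 and 2.1 in MFN1-KD and 12.4, 11.3 and 11.6 in H3.3-KD (log2 fold change 2.29, SE 0.29, adjusted p 0.000455 for H3.3-KD against control), the smallest p of the 55 genes in this comparison. Med25, a docking site of activators, had 12.5, 13.8 and 18.2 FPKM in control, 15.2, 20.2 and 27.99 in MFN1-KD and 38.02, 37.1 and 40.1 in H3.3-KD (log2 fold change 1.33, SE 0.28, adjusted p 0.00576). All H3.3-KD libraries of both lay above those of control. Med28 had 289.5, 348 and 339.5 FPKM in control, 260.2, 317 and 151 in MFN1-KD and 194, 118 and 88.3 in H3.3-KD (log2 fold change -1.36, SE 0.33, adjusted p 0.0115), with every H3.3-KD library below every control library. Med15, another docking subunit, had 5.12, 3.04 and 1.45 FPKM in control, 1.01, 4.53 and 1.53 in MFN1-KD and 7.69, 8.2 and 6.36 in H3.3-KD, and Med24 had 10.7, 6.71 and 7.33 FPKM in control, 8.55, 6.55 and 3.22 in MFN1-KD and 19.2, 19.5 and 12.9 in H3.3-KD. Their H3.3-KD libraries were above those of control without overlap, with log2 fold changes of 1.09 and 0.98 that missed the threshold (adjusted p 0.0957 and 0.0679), and both were called higher in H3.3-KD than in MFN1-KD (1.46 and 1.41, adjusted p 0.0281 and 0.0124). Med15 lost its call in the direct comparison under 8 settings (adjusted p 0.0503 to 0.0912: median-ratio scaling, no filter, upper-quartile scaling, without H3.3-KD replicate 1 or 2 or 3, without MFN1-KD replicate 1 or 3). Med24 lost its call in the direct comparison under 2 settings (adjusted p 0.0774 to 0.0982: GC and length trend removed with or without the block). The backbone gene Med14 had 24.1, 13.4 and 12.8 FPKM in control, 27.6, 22.7 and 47.2 in MFN1-KD and 27.6, 16.4 and 23.9 in H3.3-KD, with overlap between H3.3-KD and control and no call (0.44, adjusted p 0.387, in H3.3-KD and 0.91, adjusted p 0.169, in MFN1-KD). The calls of Med16 and Med28 held under every alternative setting in which they were tested. Med25 lost its call in H3.3-KD under 2 settings (adjusted p 0.285 to 0.321: GC and length trend removed with or without the block).

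**Figure D4:**
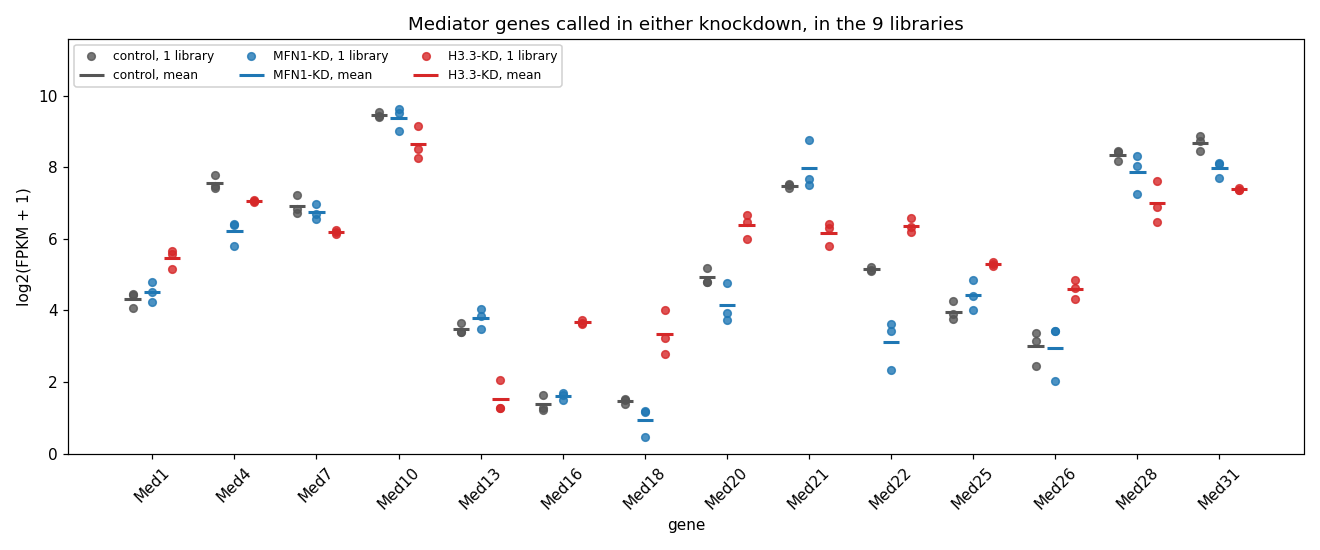
Levels, as log2(FPKM + 1), of the 14 Mediator genes called in either knockdown, in each of the 9 libraries (points; bars are group means of 3 libraries). Med18, Med20 and Med22 lie below control (grey) in MFN1-KD (blue) and above it in H3.3-KD (red), Med16 is raised and Med13 lowered in H3.3-KD.

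The kinase module holds MED13 or MED13L, which tether it to the rest of Mediator, and MED12 or MED12L, which activate its kinase. In H3.3-KD 1 of these 4 genes fell and 0 rose (25% lower, beside 9.12% of all genes). Med13 had 11.5, 9.51 and 9.58 FPKM in control, 13.3, 15.6 and 10.2 in MFN1-KD and 1.41, 1.41 and 3.2 in H3.3-KD (log2 fold change -1.94, SE 0.33, adjusted p 0.00194 for H3.3-KD against control). Its H3.3-KD libraries were below all others, and the mean was 19.7% of that in control. Med12 had 4.5, 3.44 and 3.07 FPKM in control, 5.7, 7.23 and 5.28 in MFN1-KD and 1.89, 0.59 and 1.82 in H3.3-KD, and all H3.3-KD libraries were below, and all MFN1-KD libraries above, those of control. Against control it missed the threshold (-0.98, adjusted p 0.0532, in H3.3-KD and 0.60, adjusted p 0.329, in MFN1-KD), and between the knockdowns it was called (log2 fold change -1.58, SE 0.35, adjusted p 0.00507 for H3.3-KD against MFN1-KD). The paralogs were low. Med12l had 2.66, 0.92 and 1.04 FPKM in control, 2.42, 3.25 and 3.26 in MFN1-KD and 2.67, 2.86 and 2.7 in H3.3-KD, and Med13l had 2.31, 1.54 and 1.88 FPKM in control, 2.52, 5.82 and 1.12 in MFN1-KD and 1.19, 1.28 and 1.08 in H3.3-KD. All H3.3-KD libraries were above control for Med12l and below control for Med13l, and neither passed the test in H3.3-KD (0.62 and -0.41, adjusted p 0.192 and 0.492) or in MFN1-KD (0.70 and 0.36, adjusted p 0.248 and 0.652).

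All 4 genes had a positive log2 fold change in MFN1-KD, from 0.31 to 0.70, where 44.5% of all genes were positive, and 0 passed the test. The sign turned for Med13 with the GC and length trend removed, with or without the block (-0.26), and for Med13l without MFN1-KD replicate 2 (-0.0828). Of the 3 kinase partners outside the rule, Cdk8, Cdk19 and Ccnc, the cyclin Ccnc fell in H3.3-KD, with 155 ± 27.6 FPKM in control and 62.4 ± 13.7 in H3.3-KD (SD, n = 3; log2 fold change -1.31, adjusted p 0.00253). The remaining 9 Mediator genes, Med6, Med8, Med11, Med17, Med19, Med23, Med27, Med29 and Med30, were not called against control. Their log2 fold changes ran from -0.83 to 0.54 in H3.3-KD embryos and from -0.99 to 0.52 in MFN1-KD. Med8 had the lowest value in both (adjusted p 0.0526 and 0.0863). The call of Med13 in H3.3-KD held under the 17 alternative settings in which it was tested.

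The knockdowns were also compared with each other, which uses no control library as a reference. In H3.3-KD against MFN1-KD 20 of the 55 genes were higher and 10 lower (36.4% and 18.2%), where 27.6% and 11% of all genes were called. Pol I had 3 higher (60%), Pol II 2 higher (16.7%) and 4 lower (33.3%), Pol III 3 higher (37.5%) and 1 lower (12.5%), and Mediator 12 higher (40%) and 5 lower (16.7%). Beside the genes given above, Polr3d was higher in H3.3-KD by a log2 fold change of 2.25, Polr3e by 2.12, Med16 by 2.06, Med26 by 1.64, Polr3c by 1.51, Med9 by 1.38, Polr1b by 1.22, Med27 by 1.09 and Polr1c by 1.06 (adjusted p 0.000362 to 0.0119). Med13 was lower, at -2.26 (adjusted p 0.000591), and so was Med21, at -1.81 (adjusted p 0.00161). With the GC and length trend removed, with or without the block, Med26 was at 0.59 (adjusted p 0.304 and 0.344), Med9 at 0.57 (0.15 and 0.181) and Polr1c at 0.53 (0.0511 and 0.0701), each without a call. Med16 was at 0.90 (adjusted p 0.0558) with the block and that trend removed. The direct calls of Polr1b, Polr3c, Polr3d, Polr3e, Polr3k, Med12, Med13, Med18, Med20, Med21, Med22 and Med27 held under every setting in which they were tested. Called as well were Med1, Med4, Med10, Med25, Med31 and Polr1d, and each lost its call under 2 to 12 settings. With median-ratio scaling 15 were higher and 14 lower and that scaling moved the median of all genes from 0.39 to 0.0883.

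Other genes of the transcription machinery were counted from lists of known factors. Beside the counts in H3.3-KD, 21.8% and 9.12% of all genes were called higher and lower. In H3.3-KD, 12 of 24 pausing and elongation factors of Pol II rose and 3 fell (50% and 12.5%), with a median log2 fold change of 1.02 beside 0.26 for all genes. Supt5, a pausing and processivity factor, had 18.1 ± 5.95 FPKM in control and 107 ± 21.5 in H3.3-KD (SD, n = 3; log2 fold change 2.53, adjusted p 0.000285), and the kinase Cdk9, which releases paused Pol II, had 29.5 ± 4.54 FPKM in control and 168 ± 77.98 in H3.3-KD (SD, n = 3; log2 fold change 2.38, adjusted p 0.000668). Of 32 general transcription factors 8 rose and 5 fell (25% and 15.6%, median 0.18), so that the share that rose was close to that of all genes. Ercc2, a helicase of TFIIH, had 0.837 ± 0.242 FPKM in control and 27.5 ± 5.69 in H3.3-KD (SD, n = 3; log2 fold change 3.94, adjusted p 4.54e-05), and Gtf2b, which positions Pol II at the start site, had 67.3 ± 16.8 FPKM in control and 35.1 ± 4.91 in H3.3-KD (SD, n = 3; log2 fold change -0.90, adjusted p 0.0357).

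Of 10 Pol I factors and subunits named outside the rule 4 rose and 1 fell (40% and 10%, median 0.50). Ubtf, which binds the ribosomal RNA gene promoter, had 24.1 ± 8.04 FPKM in control and 148 ± 18.3 in H3.3-KD (SD, n = 3; log2 fold change 2.61, adjusted p 0.000879), and Znrd1, a small Pol I subunit, had 430.3 ± 104 FPKM in control and 200.1 ± 9.18 in H3.3-KD (SD, n = 3; log2 fold change -1.07, adjusted p 0.0187). Of 17 Pol III factors 7 rose and 2 fell (41.2% and 11.8%, median 0.59), and of 11 polymerase assembly factors 3 rose and 0 fell (27.3% and 0%, median 0.37). The share of assembly factors that rose was near the 21.8% of all genes. Of the Pol III factors, Maf1 lost its call under 12 settings, Snapc2 under 10, Brf1 and Gtf3c2 under 8, Gtf3c6 and Snapc5 under 3 and Brf2 under 1. The calls of Bdp1 and Gtf3c5 held under each. The assembly factors Gpn2 and Rpap3 lost theirs under 12 settings and Ruvbl2 under 2.

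In MFN1-KD 5 general transcription factors fell and 0 rose (15.6% lower beside 2.2% of all genes, median -0.36 beside -0.0846 for all genes). All 5 calls were lost with no filter, with only the 6 libraries compared and with the replicate block. Those of Cdk7, Taf8, Gtf2h3 and Taf9 were lost under 16, 12, 9 and 9 of the 18 settings, and that of Tbp is given below. Tbp, which binds the TATA box and serves all 3 polymerases, had 54.97 ± 6.99 FPKM in control and 24.5 ± 8.24 in MFN1-KD (SD, n = 3; log2 fold change -1.18, adjusted p 0.0466). Of 17 Pol III factors 1 rose and 1 fell (5.88% each, beside 1.15% and 2.2% of all genes). Bdp1, a subunit of TFIIIB, had 12.7 ± 6.54 FPKM in control and 46.8 ± 7.56 in MFN1-KD (SD, n = 3; log2 fold change 1.90, adjusted p 0.0336), and Crcp, a Pol III subunit named outside the rule, had 87.98 ± 4.495 FPKM in control and 38.7 ± 3.19 in MFN1-KD (SD, n = 3; log2 fold change -1.17, adjusted p 0.0343). Of these 3 calls in MFN1-KD, that of Tbp was lost under 13 of the 18 settings (adjusted p up to 0.186), that of Bdp1 under 9 (up to 0.144) and that of Crcp under 10 (up to 0.152), among them the fit of only the 6 libraries compared, the replicate block, and the fits without control replicate 2 or 3. In H3.3-KD the calls of Supt5, Cdk9, Ercc2 and Ubtf held under each setting, whereas Gtf2b lost its call under 8 (up to 0.14), Znrd1 under 7 (up to 0.081) and Ccnc under 1 (0.0633). In the other 4 lists none passed the limma test in MFN1-KD at an adjusted p under 0.05.

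The changes were set beside transcript length and level. Over the 55 tested genes, Spearman's rho of the H3.3-KD log2 fold change was 0.38 with the length of the longest annotated transcript and -0.64 with the mean level in control. In MFN1-KD these were 0.47 and -0.46. Over the 12768 genes tested that have a length, rho with length was 0.18 in H3.3-KD embryos and 0.28 in MFN1-KD, and rho with level was -0.34 and -0.22. The relation with length differed in value among the complexes, and these differences were not tested. In H3.3-KD it was 0.78 over the 12 Pol II subunits, -0.24 over the 8 Pol III subunits and 0.0990 over the 30 Mediator genes, while for MFN1-KD the values were -0.00699, 0.14 and 0.53. The 7 Pol II genes that fell in H3.3-KD had longest transcripts of 601 to 1958 nt, and the other 5 had 890 to 6740 nt. All points come from the same 9 libraries, the control level enters both axes of the relation with level, and genes are not replicates, so these are descriptions.

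**Figure D5:**
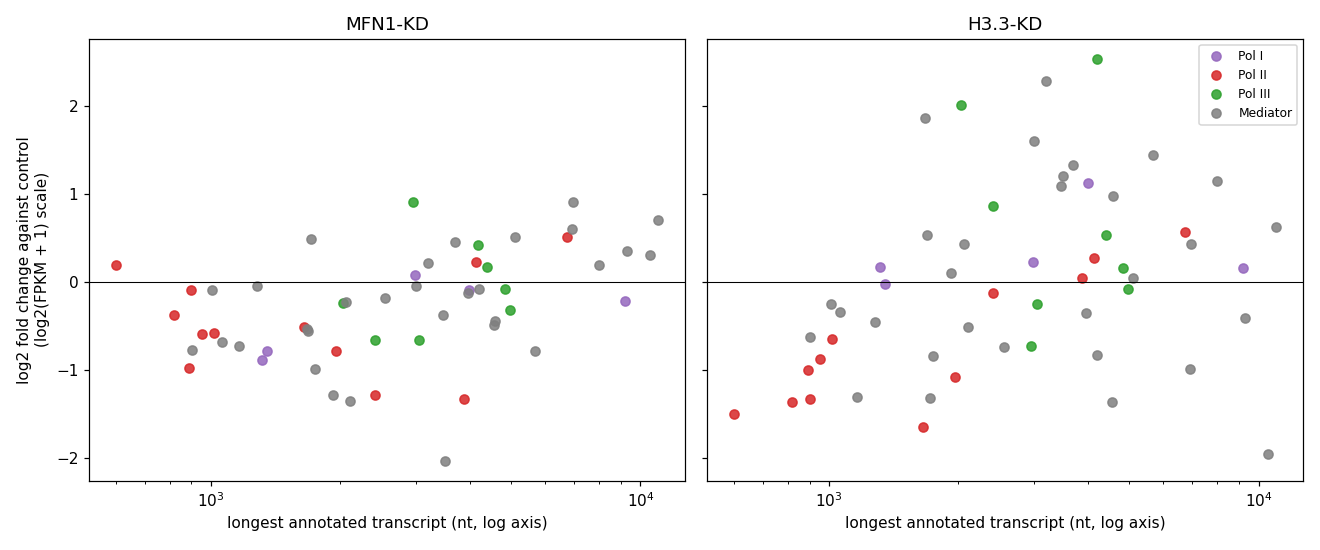
Log2 fold change against control (log2(FPKM + 1) scale) of the 55 tested genes against the length of the longest annotated transcript (nt, log axis), in MFN1-KD (left) and H3.3-KD (right), coloured by complex. In H3.3-KD the Pol II points (red) run from below 0 at short lengths to about 0 and above at long ones, with a Spearman's rho of 0.78 over 12 genes.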

How the data were processed

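RNA-seq values of 9 libraries of 8-cell mouse embryos were used, 3 per group, grouped by their titles. Per the labels, the authors amplified cDNA by Smart-Seq2, trimmed reads with cutadapt 1.16 and mapped them to mm10 with STAR. They deposited FPKM with 2 decimals for each gene. The program that made FPKM, its annotation and its strand setting are not given in the sources used here. Since the values are FPKM and not counts, no count test was run, no interval from counts is given, and relative depth was read from steps between low values of transcripts under 1200 nt.

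Genes that averaged 1 FPKM or more across the libraries were tested. A linear model on log2(FPKM + 1), with the group as the only term and all 9 libraries together, was run in limma 3.58.1 (R 4.3.3, trend and robust empirical Bayes), with Benjamini-Hochberg adjusted p over 13011 genes. Positions, lengths and GC content came from GENCODE (GRCm38), and promoters from RefSeq. The members and gene lists were chosen with earlier results of these data known. Named with values were the 2 largest subunits of each polymerase, the shared subunits, Med14 and the paralog pairs, the highest and lowest gene of each complex in control, every gene called with more than 2-fold change in any comparison, and the gene with the smallest p per complex and comparison. Others named here (Polr1e, Polr2d, Polr2g, Polr3f, Med6, Med7, Med8, Med11, Med9os and the factors outside the complexes) were chosen after their values were seen. Of the genes that the rule found, 1 is not reported here. On simulated data with 200 genes changed by 2 on the log2 scale in H3.3-KD, 55.5% were recovered among 13011 genes, and 6 unchanged genes were called. In the real H3.3-KD comparison 21.8% and 9.12% of all genes were called, a far larger share than was changed in the simulation. The adjusted threshold depends on that share, so 55.5% is not the recovery rate of the real test.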

Additional observations from a re-analysis of the deposited data

How the results depend on the processing

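The counts in MFN1-KD against control depended most on the processing. The 1 gene higher at an adjusted p under 0.05 became 0 with GC and length trend removed, with median-ratio scaling, with no filter, with only the 6 libraries compared, with a pseudocount of 0.1 and with the replicate block with or without GC correction, and was 0 to 1 when 1 library was left out. The 5 lower became 3 with GC and length trend removed, 8 with a mean of at least 10 FPKM, 0 with no filter, with only the 6 libraries and with the replicate block with or without GC correction, and 0 to 6 when 1 library was left out (1 without control replicate 1, and 0 without control replicate 2 or 3 and likewise without H3.3-KD replicate 1 or 2). By the 2-fold rule 0 higher became 0 to 2 and 5 lower 5 to 7 when 1 library was left out. In H3.3-KD against control the 11 higher became 6 with GC and length trend removed, with or without the block, 7 with upper-quartile scaling and 6 to 13 when 1 library was left out, with 6 without control replicate 2. The 14 lower became 8 with no filter and 8 to 18 when 1 library was left out, with 8 without control replicate 2 or 3 and 9 without H3.3-KD replicate 3. By the 2-fold rule the 11 higher became 6 with GC and length trend removed, with or without the block, 7 with median-ratio and 6 with upper-quartile scaling, and 9 to 13 when 1 library was left out, and the 9 lower became 16 and 18 with those scalings and 9 to 11 when 1 library was left out. In H3.3-KD against MFN1-KD the 20 higher became 11 with the replicate block and GC and length trend removed and 17 to 20 when 1 library was left out, and the 10 lower became 16 with upper-quartile scaling and 7 to 12. The cause of these changes was not tested. No label says that replicate numbers pair the samples. Same-numbered libraries of different groups had correlations of their deviations from -0.0526 to 0.158, over 0.1 in 2 of 9 pairs. Differently numbered libraries had -0.116 to 0.0720, over 0.1 in 0 of 18 pairs. Whether same-numbered libraries share a batch was not tested. With the replicate block alone 11 genes were called higher in H3.3-KD against control and 14 called lower.

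Relative to all genes, the Pol II median in MFN1-KD was -0.0777 with GC and length trend removed, with or without the block (-0.69 to -0.28 when 1 library was left out), against -0.46. The Pol III median in H3.3-KD, 0.0839, was -0.0861 with that trend removed, with or without the block, 0.36 with a mean of at least 10 FPKM and -0.18 to 0.23 when 1 library was left out, and the Mediator median, -0.36, was -0.0602 with no filter. The Pol II median in H3.3-KD, -1.20, ran from -1.37 to -0.98 over all alternatives, with -0.99 when GC and length trend were removed.

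The sign turned under at least 1 alternative for 18 of the 49 uncalled genes in MFN1-KD, 13 of 30 in H3.3-KD and 17 of 25 between the knockdowns. Among the largest subunits these were, in MFN1-KD, Polr2b (-0.0175 with GC and length trend removed, with or without the block, and -1.47e-05 to 0.42 when 1 library was left out), Polr1a (-0.50 to 0.16), Polr1b (-0.31 to 0.10) and Polr3a (-0.28 to 0.14). In H3.3-KD they were Polr1a (-0.0342 with GC and length trend removed, with or without the block, -0.15 with median-ratio and -0.24 with upper-quartile scaling), Polr3a (-0.16, -0.16 and -0.25), Polr2b (-0.0562 and -0.15 with the scalings) and Polr3b (-0.20 to 0.0177 when 1 library was left out). Of the called genes Med25 turned between the knockdowns, to -0.00346 with GC and length trend removed, with or without the block. The exact test of the Polr3g to Polr3gl ratio cannot pass 0.05 with 3 against 3, so it says nothing on stability. Read depth is not given by the files, and low genes such as Polr2a, Med12l and Med18 rest on few FPKM.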
